A study of Mus musculus with 6 samples.

Results

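miR-140 is the microRNA of the gene Mir140. It was selected by name from the count tables of the series, and its 2 entries, the 3p and the 5p arm of 1 hairpin, are 2 of the 1102 entries listed. Both are sense entries, and 0 antisense entries of Mir140 are listed. The series profiles small RNA in hearts of 6 untreated wild-type male mice of the inbred strain C57BL/6J, aged 18 weeks, with 1 library per heart, called heart 1 to heart 6 after the number in the labels. The labels call the tissue whole heart, while the protocol describes frozen ventricular apexes. There is no second group, so the comparisons are between the arms of the hairpin and between hearts. The gene was chosen because both arms were among the most variable miRNAs of these libraries, so the values of that spread are given as a description with no test.

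MicroRNAs are cut from the 5p and 3p arms of a hairpin, and 1 of the strands is usually kept in the Argonaute silencing complex, where bases 2 to 8, the seed, find target mRNAs. miR-140 is best known from cartilage. It lies in Wwp2, a gene for an E3 ubiquitin ligase, both are transcribed under the chondrocyte regulator SOX9 in mouse cartilage, and mice without miR-140 have short long bones. Hdac4 and the cartilage protease gene Adamts5 are known targets of miR-140-5p in mouse.

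The hairpin lies on the plus strand of chromosome 8 from 107551244 to 107551313 (GRCm38), within Wwp2 (107436365 to 107558595). It sits in an intron of the 3 coding transcripts that span it, from 107550136 to 107552276, which is the intron between exons 16 and 17 in the one with 24 exons. A further Wwp2 transcript of the retained-intron type covers the hairpin with an exon (107550895 to 107553547). The count tables place the 3p arm at 107551288 to 107551308 and the 5p arm at 107551249 to 107551270. The nearest other hairpin with an entry is miR-7075, 455 kb upstream on the minus strand with 34 reads over the 6 libraries, and downstream it is miR-3108, 1386 kb away with 5 reads.

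The hairpin is shown because it contains both arms whose reads are compared below, 5p first, both in capitals, at the positions that the count tables give. The mature sequences, with the seed in capitals, show the arm with most of the reads, the 1 other RefSeq miRNA with the same seed, and the arms of miR-455, another cartilage miRNA. All are from RefSeq on GRCm38.p6.
miR-140 hairpin: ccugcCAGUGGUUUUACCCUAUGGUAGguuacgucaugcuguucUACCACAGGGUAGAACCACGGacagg
miR-140-3p: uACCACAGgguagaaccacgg
miR-497b: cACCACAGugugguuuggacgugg
miR-455-5p: uAUGUGCCuuuggacuacaucg
miR-455-3p: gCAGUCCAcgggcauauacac

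Among 1679 mature names in the RefSeq table, miR-497b alone shared the seed of miR-140-3p. Its entry held 2 reads over the 6 libraries, both in heart 5, against 26708 reads of miR-140-3p. The arms of miR-455 share no seed with it. Folded in silico with RNAfold, the hairpin of 70 bases formed 30 base pairs (minimum free energy -39.1 kcal/mol), and 19 of the 21 bases of the 3p arm paired with bases of the 5p arm. Neither arm has a second locus in the tables, so its counts were not summed over copies.

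Both arms were detected in every heart, with more reads of 3p than of 5p. miR-140-3p had 3708, 3015, 2763, 2378, 10860 and 3984 reads in hearts 1 to 6. miR-140-5p had 597, 529, 376, 360, 1651 and 533 reads in the same hearts. Heart 5 was the highest and heart 4 the lowest for both arms. The libraries held 3966171 to 6007325 counts, and heart 5 was also the deepest. It held 40.7% of all miR-140 reads, against 20.3% of all counts.

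In counts per 1000000 counts of the library (CPM), miR-140-3p stood at 779, 607, 654, 600, 1808 and 711 in hearts 1 to 6, a mean of 860 ± 469 (SD, n = 6). miR-140-5p stood at 125, 107, 89.0, 90.8, 275 and 95.1 CPM, a mean of 130 ± 72.1 (SD, n = 6). Heart 5 lay above the highest of the other 5 hearts in both arms, and those 5 lay close together. Their means were 670 ± 75.3 CPM for 3p and 101 ± 15.1 CPM for 5p (SD, n = 5). Together the arms made up 2083 CPM in heart 5, against 690 to 904 CPM in the other 5. In bulk tissue, more cells of a type and more RNA per cell cannot be told apart.

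**Figure D1:**
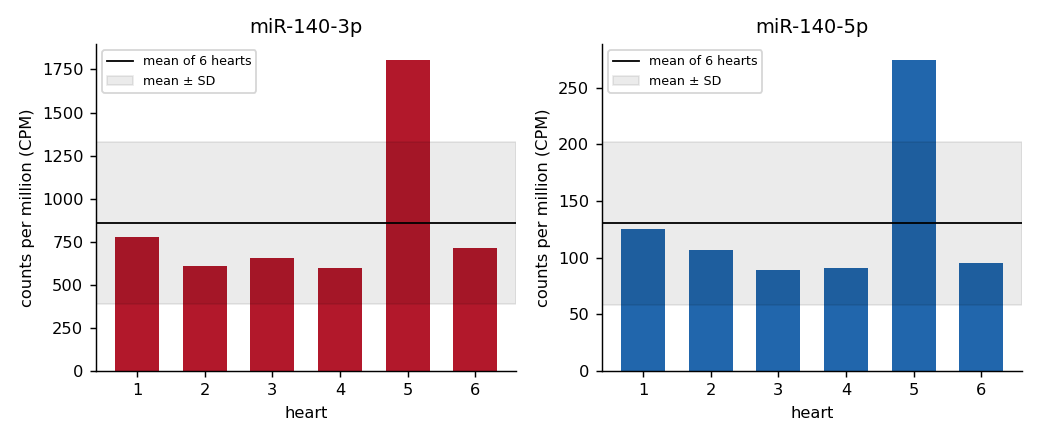
Bars show miR-140-3p (left) and miR-140-5p (right) in CPM of the library total in each of 6 hearts, with the mean (line) and mean ± SD (band) over hearts. Heart 5 reaches 1808 CPM for 3p and 275 CPM for 5p, while the other 5 hearts lie between 600 and 779 CPM and between 89.0 and 125 CPM.

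By mean CPM miR-140-3p ranked 63 of 978 mature miRNAs and miR-140-5p ranked 115. By median over hearts, on which heart 5 weighs less, the ranks were 66 and 126. Next above 3p stood let-7b-5p (929 ± 70.7 CPM, SD, n = 6), miR-149-5p (930 ± 51.1) and miR-100-5p (934 ± 209), and next below it let-7d-5p (857 ± 79.2), miR-148b-3p (764 ± 59.4) and miR-145a-5p of smooth muscle (745 ± 157). Next above 5p stood miR-144-5p (135 ± 37.5 CPM), the p53-linked miR-34a-5p (139 ± 18.2) and the myeloid miR-223-3p (144 ± 24.1). Next below it stood miR-335-3p (130 ± 23.6), the immune miR-155-5p (125 ± 9.57) and miR-338-3p (124 ± 26.8). Each of these means lies within 1 SD of the miR-140 arm it stands next to, but heart 5 makes that SD wide. In the other 5 hearts miR-140-3p stood at 600 to 779 CPM. That is below the lowest heart of let-7b-5p (823 CPM), miR-149-5p (884 CPM) and miR-100-5p (786 CPM). In heart 5 miR-140-3p stood at 1808 CPM, above the highest heart of each of them. For the other neighbours the order was not compared heart by heart. Adapter ligation favours some RNA ends, so levels of different miRNAs compare reads, not molecules.

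The 3p arm gave most of the reads of miR-140 in every heart. There were 6.21, 5.70, 7.35, 6.61, 6.58 and 7.47 reads of 3p per read of 5p in hearts 1 to 6, a mean ratio of 6.65 ± 0.674 (SD, n = 6). The 3p share of the reads was 86.8% ± 1.17 (SD, n = 6). Fitted over the 214 hairpins with both arms listed and on average 10 or more reads, the log2 ratio of 3p over 5p was 2.73 ± 0.11 (SE), or 6.62-fold (quasi-likelihood test of edgeR, blocked by library, Benjamini-Hochberg adjusted p = 7.80e-114, higher in 6 of 6 hearts). An exact sign-flip permutation test of the 6 log2 ratios alone, two-sided, gave p = 0.0312, the smallest that 6 hearts allow. The SE and the adjusted p rest on a spread that edgeR pooled fully over the hairpins, not on that of miR-140 alone. This pooling makes the adjusted p so small, and it covers only spread within these libraries. Adapter ligation can also favour the ends of 1 arm in every library, which neither test measures, so the ratio compares reads, not molecules. With TMM factors computed on the arm columns, which scale the 3p and 5p columns to each other, the ratio was 10.6-fold.

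miR-140 was 1 of 87 hairpins called with more 3p (adjusted p below 0.05, ratio of 2-fold or more), which is 40.7% of the 214 tested. A further 104 (48.6%) were called with more 5p, so a one-sided hairpin was the common case. Among hairpins with more 3p the excess of miR-140 was small, since their median ratio was 43.1-fold and 21 of the 87 had a smaller ratio than miR-140. It ranked 66 by 3p over 5p, after miR-221 (11.7-fold), the hypoxia miRNA miR-210 (11.2-fold) and miR-24 (9.40-fold) and before miR-130b (6.39-fold), miR-152 (5.96-fold) and miR-199a (5.90-fold).

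The first base of the arms can be set beside this. As annotated, the 3p arm of miR-140 starts with U and the 5p arm with C. The counts are per arm and do not show with which base the reads started. Of the called hairpins, 163 had a RefSeq sequence of the arm with more reads, and in 91 of them (55.8%) that arm started with U. Among the 158 with a sequence of the other arm too, that other arm started with U in 24 (15.2%) and with C in 56 (35.4%). miR-140 has the most frequent first base on its major arm and C on its minor arm.

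The ratio varied little between hearts and did not follow the level. In heart 5, where both arms were highest, the ratio of 6.58 (exact binomial 95% interval 6.25 to 6.93) lay in the middle of the 6. Heart 6 had the highest at 7.47 (6.83 to 8.20) and heart 2 the lowest at 5.70 (5.19 to 6.26), and these intervals do not overlap. Heart 3 at 7.35 (6.60 to 8.21) also lay above the interval of heart 2, and heart 1 at 6.21 (5.70 to 6.78) lay below that of heart 6. The reads carried no molecular identifiers, so the intervals cover counting error only. The SD of the log2 ratio over hearts was 0.147, which is 2.17 times what counting error alone would give (0.0677). Over the 46 hairpins whose arms both averaged 100 or more reads, the median of this multiple was 2.65.

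**Figure D2:**
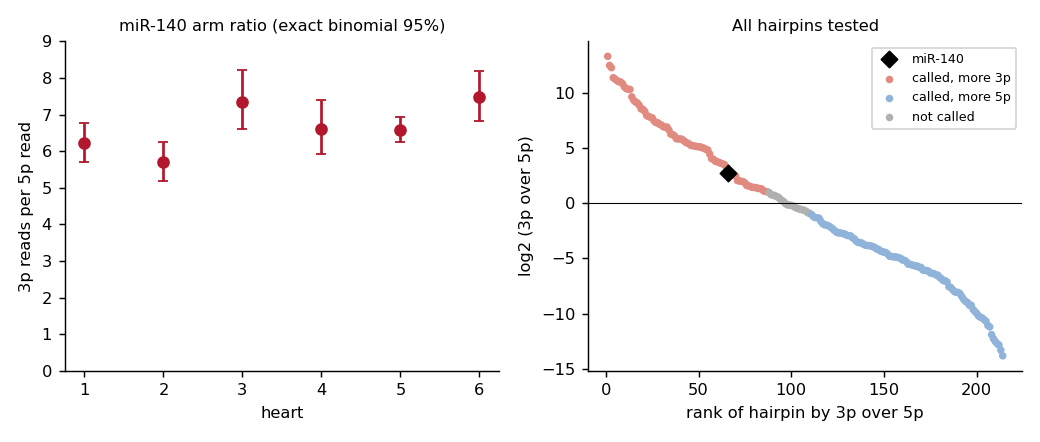
Left, reads of 3p per read of 5p of miR-140 in each of 6 hearts, with exact binomial 95% intervals. Right, log2 of 3p over 5p for each of 214 hairpins, ordered by rank, with the 87 called for 3p, the 104 called for 5p and miR-140 (rank 66, log2 ratio 2.73) marked. The ratios run from 5.70 in heart 2 to 7.47 in heart 6, and heart 5 has 6.58.

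The arms of miR-140 moved in parallel over hearts. After TMM scaling, which corrects the library totals for composition, the SD over hearts of the log2 level was 0.588 for 3p and 0.605 for 5p, ranks 2 and 1 among the 46 hairpins. The SD of their log2 ratio, 0.147, was 0.246 of the mean SD of the arms, the lowest such fraction of the 46 hairpins, whose median was 1.18. miR-140 was chosen for the large spread of its arms, which lowers this fraction. The SD of the ratio by itself ranked 9 from the lowest. The arms had a Pearson r of 0.97 and a Spearman rho of 0.83 over the 6 hearts, against a median r of 0.40 over the 46 hairpins. Only miR-142a, of blood cells, had a higher r (0.99). miR-142a was picked out here after the values were seen. The arms of miR-140 had also been seen to move together before this comparison was planned, so their r and its rank are a description. Arms of 1 hairpin share the library, its depth and the transcript, and no test was made of this r.

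Much of this parallel spread rested on heart 5. Without it, the SDs of the log2 levels of 3p and 5p were 0.210 and 0.254, above the medians of 0.166 and 0.142 over the 46 hairpins, and that of the ratio was 0.164. The fraction was then 0.709, rank 8 from the lowest, against a median of 1.40. The r of the arms was 0.76 over the 5 hearts and ranked 8 of 46, while the median r was 0.18. Among these 5 hearts, 3p had the order heart 1, 6, 3, 2 and 4 from high to low in TMM-scaled CPM (810, 738, 656, 633 and 554). For 5p it was heart 1, 2, 6, 3 and 4 (130, 111, 98.7, 89.3 and 83.9 CPM). Hearts 1 and 4 were at the ends for both arms, and heart 2 changed its place.

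**Figure D3:**
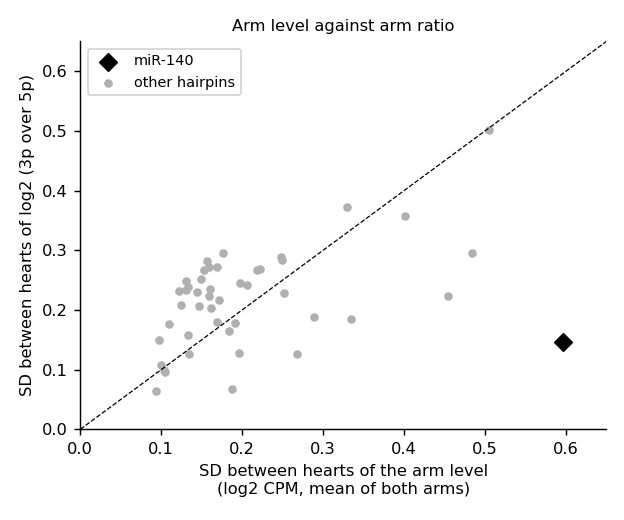
Each point is 1 of 46 hairpins whose arms both averaged 100 or more reads. The x axis gives the SD between hearts of the log2 level, averaged over both arms, and the y axis the SD of the log2 ratio of 3p over 5p, with equal values on the dashed line. miR-140 lies far to the right with SDs of 0.588 and 0.605 for its arms and low with 0.147 for the ratio.

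The spread of each arm was far above counting error, which alone would give a coefficient of variation (CV, SD over mean) of 1.5% for 3p and 3.85% for 5p. In TMM-scaled CPM the CV was 51.4% for 3p and 52.3% for 5p, ranks 4 and 3 among 208 miRNAs that averaged 100 or more reads, whose median was 12.2%. edgeR's biological coefficient of variation (BCV), an estimate drawn toward that of miRNAs of similar abundance, was 40.9% for 3p and 40.5% for 5p, ranks 4 and 5, against a median of 16.4%. Higher BCVs were found for miR-182-5p (76.1%), of the cluster of miR-183 best known in sensory organs, the liver miRNA miR-122-5p (65.6%) and miR-3057-5p (45.8%). The highest heart was 3.13 times the lowest for 3p and 3.14 times for 5p.

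Without heart 5 the arms of miR-140 were no longer among the most variable miRNAs, though their CVs stayed above the median. These CVs in the other 5 hearts were 14.5% for 3p and 18.1% for 5p, ranks 68 and 37 of 208, against a median of 11.1% and an upper quartile of 15.7%. Their BCVs were 14.1% and 17.9%, ranks 135 and 65, against a median of 15.7%. Heart 5 stood 2.64 times above the median of the other 5 hearts for 3p and 2.67 times for 5p on the TMM scale. On the scale of library totals these were 2.77 and 2.89 times, so heart 5 stood apart on both scales.

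**Figure D4:**
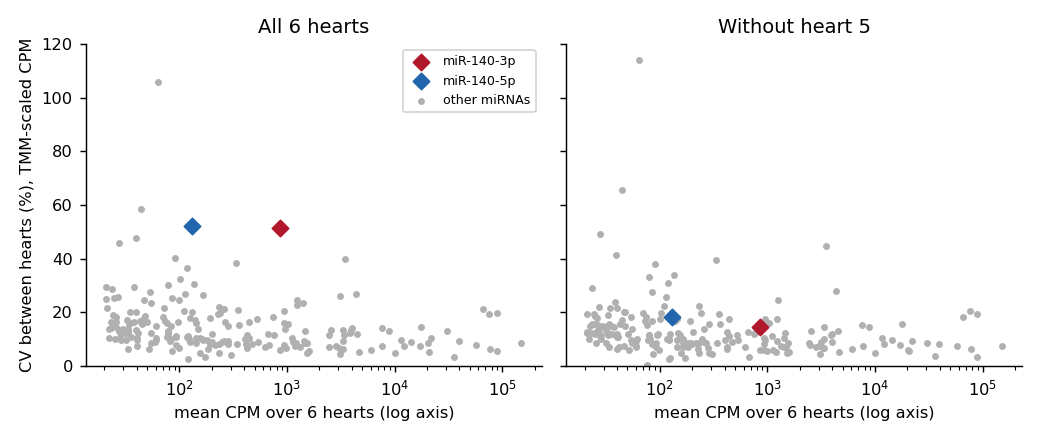
CV between hearts in TMM-scaled CPM against mean CPM (log axis) for 208 miRNAs, over all 6 hearts (left) and without heart 5 (right). The arms of miR-140 (diamonds) stand at 51.4% and 52.3% with heart 5 and at 14.5% and 18.1% without it.

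Other cartilage miRNAs had few reads, and heart 5 was again the highest. miR-455, from an intron of the collagen gene Col27a1, had 62, 64, 55, 54, 118 and 68 reads of 5p in hearts 1 to 6 and 56, 68, 34, 34, 111 and 58 reads of 3p. In TMM-scaled CPM miR-455-3p stood at 17.7 in heart 5, against 7.92 to 14.3 in the other 5 hearts. miR-455-5p stood at 18.8 CPM in heart 5, against 12.6 to 13.5 CPM. Heart 5 was thus 1.65 times the median of the others for miR-455-3p and 1.44 times for miR-455-5p, less than for miR-140. miR-675, cut from the imprinted growth-control RNA H19, had 11 reads of 3p, 6 of them in heart 5, and 1 read of 5p, also in heart 5. The cartilage and skeletal list held 4 members that averaged 10 or more reads, all highest in heart 5, but they are the arms of miR-140, chosen with that known, and the arms of the single miR-455 hairpin, so the count supports nothing. Of all 348 miRNAs at that depth, 68 (19.5%) were highest in heart 5. miR-140-3p makes up 84.6% of the summed list, so the sum (2033 TMM-scaled CPM in heart 5, 659 to 966 in the others) mostly repeats miR-140. How much cartilage or other connective tissue each piece of heart held was not tested.

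The miRNAs whose pattern over the 6 hearts was most like the sum of both miR-140 arms were miR-199a-3p (Pearson r 0.99, Spearman rho 0.94), miR-199b-3p (0.96, 0.60), miR-100-5p (0.93, 0.77), miR-434-3p of the imprinted Dlk1-Dio3 locus (0.92, 0.71) and miR-130a-3p (0.91, 0.77). They were taken from 206 miRNAs of other hairpins that averaged 100 or more reads, whose median r was -0.05. The values were log2 TMM-scaled CPM, and within each of the 6 libraries all miRNAs share its depth and scaling. miR-199a-3p, an miRNA of fibroblasts and other mesenchymal cells, had 3192, 2673, 2827, 2529, 4695 and 2742 TMM-scaled CPM in hearts 1 to 6. Heart 5 was highest, then heart 1, and heart 4 was lowest, as for miR-140. Heart 5 was 1.71 times the median of the others for miR-199a-3p and 1.17 times for miR-130a-3p, so the likeness came with smaller amplitudes. miR-130a-3p did not keep the order of miR-140 below heart 5, since heart 3 was its lowest (616 TMM-scaled CPM). The RefSeq sequences of miR-199a-3p and miR-199b-3p are identical, which is why they are printed here, so this sequence alone cannot tell the 2 hairpins apart. They were nevertheless counted apart, with 94339 and 4969 reads over the 6 libraries. How reads were divided between them is not given, so they are not taken as 2 independent patterns.
miR-199a-3p: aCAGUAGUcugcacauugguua
miR-199b-3p: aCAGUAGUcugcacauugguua

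Likeness over 6 hearts rested largely on heart 5. Over the other 5 hearts the highest r belonged to miR-106b-3p (1.00, against 0.28 over all 6), miR-582-3p (0.95, against -0.01), miR-25-3p (0.95, against 0.22), let-7i-3p (0.93, against 0.27) and miR-199a-3p (0.90, against 0.99). Only miR-199a-3p was in both sets of 5. Without heart 5 the r of miR-199b-3p was 0.70, of miR-100-5p 0.66, of miR-130a-3p 0.32 and of miR-434-3p 0.15. These correlations rest on 5 or 6 points and are descriptions.

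Several marker lists differed in heart 5 and others did not. On the fibroblast and mesenchymal list, 6 of 8 members were highest in heart 5, all of them arms of miR-199a, miR-199b and miR-214. These are fewer than 6 separate patterns, since arms of the same hairpin share the transcript and miR-199a-3p and miR-199b-3p are identical in sequence. All 8 members averaged 100 or more reads, and of all 208 miRNAs at that depth, 44 (21.2%) were highest in heart 5. The other 2 members, miR-10b-5p and miR-21a-5p, were highest in heart 1 and carry most of the sum. The sum in heart 5 (26229 TMM-scaled CPM) thus lay within the range of the other 5 hearts (22940 to 32285). In the Dlk1-Dio3 locus, a cluster of imprinted miRNAs on chromosome 12, 17 of the 25 that averaged 10 or more reads were highest in heart 5. Of all 348 miRNAs at that depth, 68 (19.5%) were highest in heart 5. The Dlk1-Dio3 locus summed to 2943 CPM there, against 1764 to 2046 CPM in the others. The lead miRNA of the locus, miR-127-3p, was 1.66 times the median of the others in heart 5.

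The smooth muscle list (miR-143-3p and miR-145a-5p) was highest in heart 5 for both members, with a sum of 108738 TMM-scaled CPM in heart 5 against 60628 to 106583 CPM in the other 5. The cardiomyocyte list was lowest in heart 5, at 90375 CPM against 95393 to 106151 CPM, where miR-133a-3p makes up 89.8% of the sum. Its members did not all go that way. miR-133a-3p, miR-208a-3p and miR-499-5p were lowest in heart 5, while miR-1a-3p stood at 1.17 times the median of the others there and miR-208b-3p, from the fetal myosin gene Myh7, was highest there at 1.68 times. The leukocyte list also had its lowest sum in heart 5, at 1948 CPM against 2139 to 2939 CPM. Of its 4 members the lymphocyte miRNA miR-150-5p alone was lowest in heart 5, and miR-142a-3p, miR-142a-5p and miR-223-3p were lowest in heart 6. The endothelial list (85066 CPM, against 84289 to 98727) and the erythroid list (3953 CPM, against 2093 to 6111) in heart 5 lay within the range of the others. Other imprinted and growth-linked miRNAs summed to 214 CPM in heart 5, below the 231 to 289 CPM of the others. Of their 3 members that averaged 10 or more reads, 0 were highest there, against 68 (19.5%) of all 348 miRNAs at that depth. With 3 members this count says little. The part of these lists in the level of miR-140 was not tested.

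**Figure D5:**
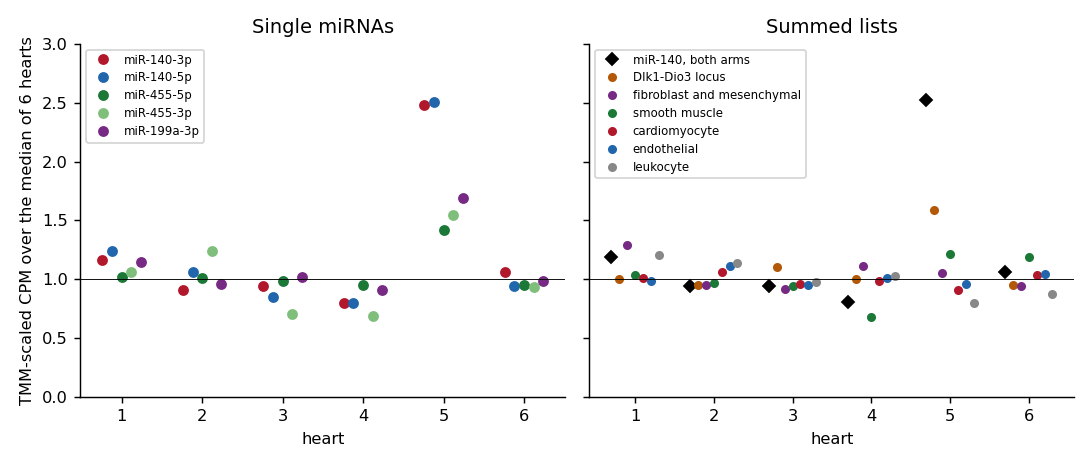
TMM-scaled CPM in each of 6 hearts, divided by the median of the 6, for single miRNAs (left) and for both miR-140 arms together and summed marker lists (right), with points shifted sideways to be seen. In heart 5 the miR-140 arms lie highest, followed by miR-199a-3p and the arms of miR-455 on the left and by the Dlk1-Dio3 locus on the right, whose sum is 2943 CPM there.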

How the data were processed

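Each deposited file is a list of mature miRNA arms by locus with whole-number counts of reads, left unnormalized by the authors. The submitters' processing notes give GRCm38 as the build and name edgeR and DESeq without saying for which step. How reads were aligned and counted, and what was done with reads of several loci, is not given in the sources used here.

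Antisense entries were assigned to a hairpin annotated on the opposite strand (39 of 76), and the other 37, at most 0.000705% of a library, were left out. Copies with 1 mature name were summed, which gave 978 mature miRNAs. Hairpins and their genes came from GENCODE vM21 and RefSeq (GRCm38.p6). Arms were compared with edgeR 4.0.16 (glmQLFit and glmQLFTest on counts, library as block, library totals as offset). BCVs are tagwise estimates after TMM with the robust option, over miRNAs that averaged 10 or more reads. Likeness used log2 CPM with a prior count of 1. DESeq2 1.42.0 was an alternative, and RNAfold 2.7.2 folded the hairpin. The arm test was run on simulated data in which the arms were drawn independently, sharing only the depth of the library. That simulation therefore does not check the pairing of arms within a heart. At 3966171 to 6007325 counts per library, 1 read is 0.166 to 0.252 CPM, and 3 counts, the limit that a count of 0 allows, are 0.499 to 0.756 CPM.

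miR-140 and the lists were chosen with earlier results of these data known. Named miRNAs are the miR-140 arms, list members, the 5 most alike with and without the heart farthest from the median, the 3 next above and below each arm in mean CPM and the hairpin in arm ratio, the 5 highest BCVs, seed sharers and the nearest hairpins. Alternatives varied the tool, the block, the scaling, the filter and the hearts included.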

Additional observations from a re-analysis of the deposited data

Results flagged for a closer look

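In 15 of 61 sets of 6 values checked, 1 heart was set apart, that is, the gap between the extreme heart and its neighbour took up more of the whole range than Dixon's 95% critical value for 6 samples allows (which chance exceeds in about 1 set of 20). In 14 of them heart 5 was set apart on the high side. The 61 sets include the arms of miR-140, chosen for their spread, their list sum and miRNAs picked for likeness to them, so neither these counts nor the values below are a test. Among all 208 miRNAs that averaged 100 or more reads, 20 had 1 heart set apart, 10 of them with heart 5 high, while heart 5 was the highest heart for 44 of the 208, against 59 for heart 1, the most of any heart. The gap was 0.852 of the range for miR-140-3p and 0.804 for miR-140-5p in CPM, and 0.846 for both arms together. In TMM-scaled CPM, the scale of all values that follow, these gaps were 0.783, 0.741 and 0.778. On that scale the gap was 0.777 for the summed cartilage and skeletal list, most of which is miR-140-3p, and 0.847 for miR-455-5p. The mesenchymal miR-199a-3p had 0.694 and miR-199b-3p, identical in sequence, 0.685. The summed Dlk1-Dio3 locus had 0.761. Among its members miR-434-3p had 0.749, miR-127-3p 0.743, miR-411-5p 0.738, miR-136-3p 0.704 and miR-300-3p 0.656. miR-130a-3p had 0.640. The exception was miR-182-5p, with 0.848, where heart 4 was the high one. Sets of miRNAs from 1 locus are not independent, so these are fewer separate patterns than 15.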

How the results depend on the processing

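The excess of 3p over 5p of miR-140 kept its direction and its call under the 10 alternatives run. Its log2 ratio ran from 2.69 to 2.77 with 1 heart left out and from 2.72 to 3.41 under the other settings, with adjusted p from 4.66e-199 (DESeq2) to 1.47e-08 (no replicate block). The numbers of hairpins called were 86 to 88 for 3p and 102 to 105 for 5p with 1 heart left out. With 1 heart left out and TMM refitted, the BCV of miR-140-3p ran from 14.1% to 45.0% and that of miR-140-5p from 17.9% to 44.6%, and the CVs from 14.1% to 56.9% and from 17.7% to 58.5%, each lowest without heart 5. The SD of the log2 ratio ran from 0.114 to 0.165 and the r of the arms from 0.76 to 0.99. Of the 5 miRNAs most like miR-140, between 1 (without heart 5) and 4 remained with 1 heart left out, and 3 with library totals in place of TMM; the cause was not tested. Without edgeR's robust option, an alternative added after the data were seen, the BCVs were 33.2% for 3p and 34.8% for 5p. Adding antisense entries could not be run, as miR-140 has 0. The arms are paired within each library, and without that block (no replicate block) the log2 ratio was 2.72. Depth leaves listed miRNAs with few reads, such as miR-675-5p with 1 read, without a readable pattern.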
